A study of Mus musculus with 10 samples.

Results

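The collagens are the main structural proteins of the artery wall, and each collagen molecule is a triple helix of 3 chains, alike or different, that separate genes encode. All collagen chain genes were followed in primary smooth muscle cells of the mouse aorta. A chain was taken as a protein coding gene whose symbol has the form Col, number, a, number, which gave 44 of the 54446 genes in the count table, in 27 collagen types. Of these chains 36 had enough counts to be tested, among 15181 tested genes. Gene counts were measured in 5 libraries from KitW/Wv mice, whose Kit alleles are W and Wv (WWv) and in 5 libraries from wild type mice (WT). Per the labels, aortas of 5 mice of each genotype were digested with collagenase and the freed cells were grown to passage 2 with no further treatment named. Kit encodes c-Kit, a receptor tyrosine kinase, and the question set by the design text is what the cells express when its signalling is lost. W is a splice allele whose receptor lacks the membrane-spanning segment and Wv alters the kinase domain, both in every cell and from conception, so a difference could arise in the animal or in culture. Sex, age and strain background of the mice are not given in the sources used here, and passaged cells model the synthetic state of smooth muscle, not the intact media.

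Collagen chains are made as procollagens in the endoplasmic reticulum, where proline and lysine residues are hydroxylated and the chains fold into a helix built of repeated Gly-X-Y triplets. Fibrillar collagens (types I, III and V in arteries) are then trimmed and packed into banded fibrils that bear tension, and collagens without a continuous helix do other work. Type IV forms the sheet-like network of the basement membrane around each smooth muscle cell, type VI forms beaded microfilaments close to the cell, and the FACIT group (fibril-associated collagens with interrupted triple helices) decorates the fibril surface.

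Library totals ran from 43455518 to 53863661 counts in WWv and from 42040255 to 51309067 counts in WT. WT 2 stood apart from the other WT libraries: on the first principal component of all tested genes it lay at -20.2, within the WWv range of -33.4 to -11.5, while the other WT libraries lay at 29.1 to 51.1. No label gives a reason, so WT 2 was kept, and results that rest on it are given with and without it. WT 2 was singled out from these same data, and leaving out the WT library nearest WWv favours larger differences. Values and adjusted p without WT 2 are therefore a description and not added support. Kit had 2.09, 0.928, 1.71, 3.01 and 2.25 CPM in WWv libraries 1 to 5, against 3.19, 4.91, 4.07, 4.40 and 4.02 CPM in WT libraries 1 to 5 (CPM, counts scaled to a common library size with TMM factors). All WT values, WT 2 included, exceeded all WWv values, with a log2 fold change of -1.04 ± 0.25 (SE). The summed CPM of 9 smooth muscle marker genes was 16801 to 20187 in WWv and 9964 to 13035 in WT. Most of it came from Acta2 (means 11390 CPM in WWv and 6772 in WT) and Tagln (4623 and 2786 CPM), which both groups expressed strongly. Cnn1, Myh11, Smtn and Lmod1 had means of 304 to 752 CPM in WWv and 205 to 464 CPM in WT. Synpo2, Des and Myocd were low, down to Myocd at 3.78 CPM in WWv and 1.72 CPM in WT. Of the 9, 7 were past the threshold and higher in WWv, beside 12.8% of all tested genes. In such bulk samples fewer cells of a type and less RNA per cell cannot be told apart.

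Of the 36 tested chains, 6 were higher and 8 were lower in WWv than in WT at an adjusted p under 0.05 (edgeR's quasi-likelihood test, two-sided, Benjamini-Hochberg adjustment over all 15181 genes). The higher chains were Col4a1 and Col4a2 of the basement membrane network, Col6a3 of type VI, Col10a1, Col15a1 and Col19a1. The lower chains were Col6a1, Col6a2 and Col6a6 of type VI, Col4a6 of type IV, the fibrillar Col11a1 and Col24a1, the FACIT chain Col20a1 and the membrane-spanning Col23a1. Of these, Col23a1 passed the low-count filter through its WT libraries, which favours a lower call. The abundant type I and type V chains did not pass the test. Log2 fold changes of the called chains ran from -2.49 for Col6a6 to 1.46 for Col6a3.

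Read against the whole table, 14 of 36 chains called (38.9%) stood beside 28.2% of all tested genes, with 12.8% of all genes called higher and 15.4% called lower. Among protein coding genes the background was 29.2%. The median log2 fold change of the tested chains was -0.24, against -0.01 over all tested genes. All 5 WWv libraries lay on 1 side of all 5 WT libraries for 6 of the 36 chains, Col23a1 among them. Over all tested genes 15.9% did so, and the chains were near that background. For 13 of the 14 called chains all 5 WWv values lay beyond the WT mean in the direction of the call, the exception being Col15a1.

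Without WT 2 the same test called 7 of 38 tested chains higher and 19 lower, 68.4% in all, while 46.2% of all genes were then called. Of the 15423 genes tested in that fit, 3507 were called higher and 3620 lower. Among the 19 are Col6a5 and Col9a2, which were not tested with all libraries. They then passed the low-count filter by their WT libraries alone, which set the direction of their calls. WT 2 was the lowest WT library in 30 of the 36 tested chains, and it lay within the WWv range in 7 of the 14 called ones. WWv 1 was the lowest WWv library in 19 of the 36.

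**Figure D1:**
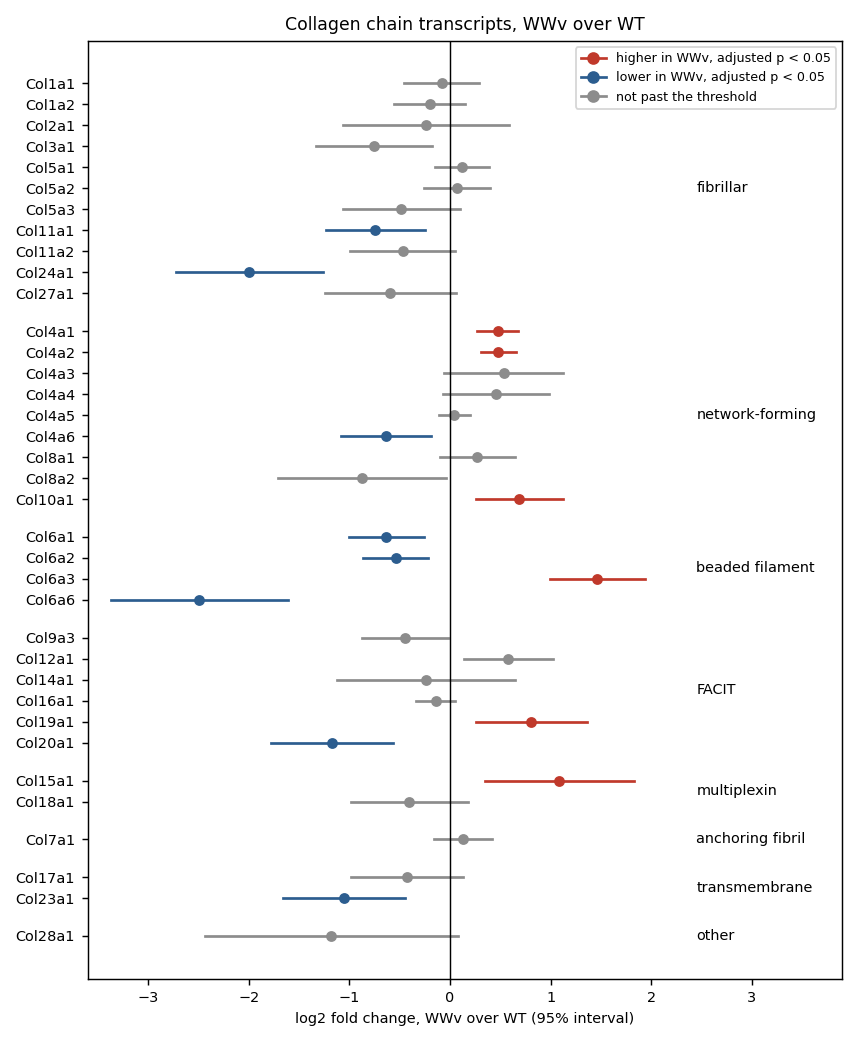
Log2 fold change of WWv over WT for each of the 36 tested collagen chains (points) with the 95% interval (lines), grouped by collagen class; n = 5 libraries per group. Red marks the 6 chains higher in WWv and blue the 8 lower at an adjusted p under 0.05; within type VI, Col6a3 lies right of zero and the other tested chains left of it.

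Among the 9 network-forming chains (types IV, VIII and X), all of them tested, 3 were higher and 1 was lower in WWv. Type IV has 6 chains that form fixed trimers, and Col4a1 and Col4a2 together make the form present in nearly all basement membranes. Col4a1 (mm10 chromosome 8, 11198423 to 11312826, minus strand) had 2488, 2757, 2804, 2408 and 2723 CPM in WWv libraries 1 to 5, against 2027, 1538, 1892, 1836 and 2197 CPM in WT libraries 1 to 5. The groups did not overlap, and WT 2 was the lowest library. Its log2 fold change was 0.47 ± 0.09 (SE, adjusted p = 0.00485).

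Col4a2 (chromosome 8, 11312805 to 11449287, plus strand) had 1884, 2088, 2063, 1816 and 1976 CPM in WWv libraries 1 to 5, against 1477, 1204, 1424, 1350.0 and 1596 CPM in WT libraries 1 to 5. Again every WWv library lay above every WT library. Its log2 fold change was 0.48 ± 0.08 (adjusted p = 0.00216), close to that of Col4a1. The log2 ratio of Col4a1 to Col4a2 per exon kilobase was 0.25 ± 0.03 in WWv and 0.25 ± 0.05 in WT (SD, n = 5 each). Both calls held in each fit that left out 1 library, with log2 fold changes of 0.41 to 0.53 for Col4a1 and 0.43 to 0.53 for Col4a2.

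The pair is also joined in the genome: Col4a1 and Col4a2 start head to head on opposite strands and their annotated gene bodies overlap by 22 bases. The promoter windows of both genes (RefSeq, GRCm38.p6, 250 bases before to 50 bases after the start) are shown because the chains rose together and share bases. Capitals mark the 78 shared bases, chr8:11312777-11312854, which each window reads on its own strand. The Col4a1 window is chr8:11312777-11313076 on the minus strand and the Col4a2 window chr8:11312555-11312854 on the plus strand, both written 5′ to 3′.
Col4a1: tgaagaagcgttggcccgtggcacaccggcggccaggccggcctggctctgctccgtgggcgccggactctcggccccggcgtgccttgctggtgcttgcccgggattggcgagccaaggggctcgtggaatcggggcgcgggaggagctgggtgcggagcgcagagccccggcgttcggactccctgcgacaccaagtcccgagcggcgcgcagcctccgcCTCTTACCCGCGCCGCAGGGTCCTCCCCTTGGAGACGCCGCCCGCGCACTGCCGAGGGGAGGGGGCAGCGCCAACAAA
Col4a2: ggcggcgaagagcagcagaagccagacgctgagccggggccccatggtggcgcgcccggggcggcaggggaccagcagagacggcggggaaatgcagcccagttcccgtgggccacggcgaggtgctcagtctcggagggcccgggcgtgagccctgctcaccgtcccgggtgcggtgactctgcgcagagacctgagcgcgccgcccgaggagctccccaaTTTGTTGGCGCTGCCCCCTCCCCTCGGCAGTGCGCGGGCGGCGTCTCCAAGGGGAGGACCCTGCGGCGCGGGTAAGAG
These windows held 37 CG dinucleotides for Col4a1 and 33 for Col4a2, against a median of 7 over 32817 RefSeq promoter windows of this length. The other type IV genes are also arranged head to head, with 71 bases between the starts of Col4a3 and Col4a4 and 1308 bases between those of Col4a5 and Col4a6.

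None of the other 4 type IV chains was called higher. Col4a6, which pairs with Col4a5 in a trimer known from smooth muscle basement membranes, had 42.5, 45.8, 30.6, 43.4 and 56.8 CPM in WWv libraries 1 to 5, against 86.1, 39.6, 76.7, 74.5 and 62.4 CPM in WT libraries 1 to 5. The groups overlapped, with WT 2 inside the WWv range and the other WT libraries above every WWv library. The log2 difference came to -0.63 ± 0.20 (adjusted p = 0.0392), and the call was lost in 8 of the 10 fits that left out 1 library, all but those without WT 2 or WWv 5. Without WT 2 it was -0.77 (adjusted p = 0.00170). Col4a5 ranged over 230.5 to 277 CPM in WWv and 229 to 278 CPM in WT, with a log2 fold change of 0.04 (95% interval -0.11 to 0.20). Col4a3 and Col4a4, the low-level chains known from kidney glomeruli, had 3.23 ± 0.591 and 3.79 ± 0.650 CPM in WWv, against 2.23 ± 0.833 and 2.76 ± 0.947 CPM in WT (SD). Their intervals reached zero (-0.05 to 1.12 for Col4a3 and -0.07 to 0.98 for Col4a4). Of the Col4a3 exon bases 5.65% also belong to a noncoding gene on the opposite strand, and since the strand setting of the counting is not given, reads there cannot be assigned.

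Type VIII collagen is the short-chain network collagen that arterial smooth muscle makes when it migrates or is injured. Its main chain Col8a1 had 599, 839, 809, 778 and 951 CPM in WWv libraries 1 to 5, against 627, 441, 607, 848 and 771 CPM in WT libraries 1 to 5. The groups overlapped and the chain did not pass the test, with a 95% interval of -0.10 to 0.64 around 0.27. Col8a2, its partner chain, had 0.989, 1.49, 2.38, 1.51 and 1.72 CPM in WWv libraries 1 to 5, against 2.94, 0.927, 2.16, 4.07 and 4.72 CPM in WT libraries 1 to 5. It did not pass the test either (log2 fold change -0.88 ± 0.38, adjusted p = 0.107). WT 2 was the lowest of all 10 libraries, and without it Col8a2 was lower in WWv, at -1.10 (adjusted p = 0.00640). Col8a1 exceeded Col8a2 by a log2 ratio per exon kilobase of 8.18 ± 0.33 in WWv and 7.16 ± 0.59 in WT. Col10a1, the type X chain of hypertrophic cartilage, had 2.27, 4.48, 3.46, 2.84 and 3.82 CPM in WWv libraries 1 to 5, against 2.34, 2.20, 1.79, 2.53 and 1.598 CPM in WT libraries 1 to 5. WWv 1 lay within the WT range, and the other WWv libraries lay above every WT library. The log2 fold change was 0.69 ± 0.20 (adjusted p = 0.0243), and 5 of the 10 fits without 1 library lost the call. Of 7 listed marker genes of cartilage cells, 4 were tested, none was called higher, and Sox9 was lower in WWv (log2 fold change -0.99).

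Type VI collagen chains moved in opposite directions. All 4 tested chains passed the threshold, Col6a3 upward and Col6a1, Col6a2 and Col6a6 downward. Each type VI molecule holds 1 Col6a1 chain, 1 Col6a2 chain and a longer partner, which is Col6a3 or, in some tissues, Col6a4, Col6a5 or Col6a6.

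Col6a3 (chromosome 1, 90765923 to 90843971, minus strand) had 204, 402, 358, 368 and 268 CPM in WWv libraries 1 to 5, against 76.0, 151, 109, 106 and 138 CPM in WT libraries 1 to 5. No WWv library overlapped the WT range, and WT 2 was the highest WT library. It was 2.76-fold higher in WWv, a log2 fold change of 1.46 ± 0.21 (adjusted p = 0.00127). Leaving out any 1 library kept it between 1.34 and 1.59, with the call held each time.

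Col6a6 (chromosome 9, 105687809 to 105828160, minus strand) had 9.69, 4.34, 23.4, 7.34 and 13.5 CPM in WWv libraries 1 to 5, against 85.9, 36.7, 58.5, 80.3 and 65.4 CPM in WT libraries 1 to 5. All WWv libraries lay below all WT libraries, and WT 2 was the lowest of the WT ones. It was 5.62-fold lower in WWv, a log2 fold change of -2.49 ± 0.40 (adjusted p = 0.00187), the largest absolute change among the 36 tested chains. It lay between -2.90 and -2.28 in the fits without 1 library and kept its call.

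Col6a1 and Col6a2 lie near each other on chromosome 10 (76708792 to 76726168 and 76595762 to 76623630, both minus strand) and supply the obligate shorter chains. Col6a1 had 310.0, 356, 258, 332 and 393 CPM in WWv libraries 1 to 5, against 598, 320.5, 485, 613 and 537 CPM in WT libraries 1 to 5. Col6a2 had 214, 234, 194, 222 and 252 CPM in WWv libraries 1 to 5, against 375, 212, 299, 389.8 and 345 CPM in WT libraries 1 to 5. For each chain WT 2 fell within the WWv range, and the other 4 WT libraries lay above every WWv library. The log2 fold changes were -0.63 ± 0.17 for Col6a1 (adjusted p = 0.0181) and -0.54 ± 0.15 for Col6a2 (adjusted p = 0.0195). Without WT 2 they were -0.76 and -0.66, and the call of Col6a2 was lost only in the fit without WT 1 (adjusted p = 0.0504).

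The Col6a3 to Col6a2 ratio per exon kilobase moved with these opposite changes. Its log2 value was -0.04 ± 0.44 in WWv and -2.01 ± 0.68 in WT, and every WWv library (lowest -0.59, WWv 1) was above every WT library (highest -1.01, WT 2). As the geometric mean of the ratios in each library, Col6a3 stood at 0.973 of Col6a2 in WWv and at 0.248 of it in WT. Over the length of the longest principal coding transcript instead, the values were 0.613 in WWv and 0.156 in WT. The log2 ratio of Col6a1 to Col6a2 was 1.48 ± 0.09 in WWv and 1.58 ± 0.04 in WT, and the groups overlapped.

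The remaining type VI chains, Col6a4 and Col6a5, lie beside Col6a6 on chromosome 9 and were too low to be tested. Col6a5 had 12 counts summed over the WWv libraries and 101 over the WT libraries, with at most 35 in any library. Col6a4 had 29 counts in WWv and 77 in WT, with at most 27 in any library. Without WT 2 the low-count filter let Col6a5 through by its WT libraries alone, its highest WWv value being 0.144 CPM. It was then called lower in WWv, but the filter had set that direction, so no conclusion is drawn from the call.

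**Figure D2:**
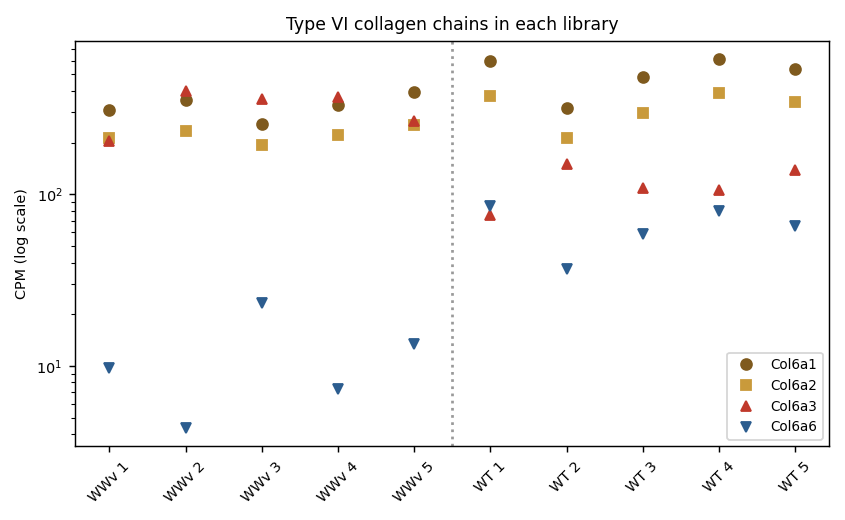
TMM-scaled CPM (log axis) of the 4 tested type VI collagen chains in each of the 5 WWv libraries (left) and 5 WT libraries (right). Without division by length, Col6a3 (red triangles) lies above Col6a2 (squares) in WWv 2 to 5, slightly below it in WWv 1, and below it in every WT library, and Col6a6 (inverted triangles) lies at 4.34 to 23.4 CPM in WWv and 36.7 to 85.9 CPM in WT.

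The promoter windows of the 4 chains are shown because these chains of 1 collagen type moved in opposite directions. They come from RefSeq (GRCm38.p6, 250 bases before to 50 after the start, all on the minus strand, 5′ to 3′), at chr10:76725995-76726294 for Col6a1, chr10:76623355-76623654 for Col6a2, chr1:90843922-90844221 for Col6a3 and chr9:105828036-105828335 for Col6a6. Capitals mark a CCAAT box (CCAAT), a GC box (GGGCGG) or an AP-1 motif (TGANTCA) on either strand.
Col6a1: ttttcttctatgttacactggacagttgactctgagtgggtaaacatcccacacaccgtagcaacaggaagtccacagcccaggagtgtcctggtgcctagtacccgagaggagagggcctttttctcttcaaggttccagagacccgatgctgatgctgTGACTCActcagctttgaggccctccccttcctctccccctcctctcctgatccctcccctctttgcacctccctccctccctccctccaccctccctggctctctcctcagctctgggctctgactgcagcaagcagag
Col6a2: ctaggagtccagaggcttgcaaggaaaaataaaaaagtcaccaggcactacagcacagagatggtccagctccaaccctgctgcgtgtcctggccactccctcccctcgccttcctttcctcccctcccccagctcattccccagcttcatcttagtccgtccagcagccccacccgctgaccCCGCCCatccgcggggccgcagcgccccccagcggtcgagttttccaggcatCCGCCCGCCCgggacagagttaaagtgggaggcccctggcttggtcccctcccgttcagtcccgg
Col6a3: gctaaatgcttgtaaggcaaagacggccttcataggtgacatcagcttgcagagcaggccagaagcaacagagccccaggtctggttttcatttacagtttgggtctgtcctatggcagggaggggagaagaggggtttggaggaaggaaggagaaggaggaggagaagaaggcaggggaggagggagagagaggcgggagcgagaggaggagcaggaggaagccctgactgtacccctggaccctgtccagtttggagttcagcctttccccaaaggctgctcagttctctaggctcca
Col6a6: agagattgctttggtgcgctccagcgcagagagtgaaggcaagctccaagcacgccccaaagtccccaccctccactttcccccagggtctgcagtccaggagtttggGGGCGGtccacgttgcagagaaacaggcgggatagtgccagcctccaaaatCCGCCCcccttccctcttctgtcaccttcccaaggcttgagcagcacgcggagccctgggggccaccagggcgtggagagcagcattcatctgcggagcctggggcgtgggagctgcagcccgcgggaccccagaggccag
RefSeq has a second Col6a2 window, chr10:76623581-76623880, which is not shown and held 1 GC box and 6 CG dinucleotides. Of the windows shown, that of Col6a1 held 1 AP-1 motif, that of Col6a2 3 GC boxes and that of Col6a6 2 GC boxes, while these letters were not in that of Col6a3. A GC box was found in 35.6% of the 32817 windows and an AP-1 motif in 7.81%. CG dinucleotides numbered 3 in Col6a1, 16 in Col6a2, 3 in Col6a3 and 14 in Col6a6. The 3 GC boxes of Col6a2 include a pair in which 1 begins 4 bases after the other and overlaps it.

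The fibrillar chains, 11 in all and all tested, had 2 called lower in WWv and none called higher. Type I is the main tension-bearing collagen, built of 2 Col1a1 chains and 1 Col1a2 chain. Col1a1 had 6849, 9291, 8480.3, 8734 and 8702 CPM in WWv libraries 1 to 5, against 9109, 5475, 8796, 9575 and 11554 CPM in WT libraries 1 to 5. The WT libraries spread further than the WWv libraries and enclosed them, with WT 2 the lowest of all 10 and WT 5 the highest. The log2 fold change was -0.08 with a 95% interval of -0.45 to 0.29. Col1a2 had 3467, 4804, 4464, 4390.4 and 4118 CPM in WWv libraries 1 to 5, against 4747, 3179.8, 4749, 5347 and 6371 CPM in WT libraries 1 to 5. It too overlapped and did not pass the test, at -0.20 (interval -0.55 to 0.15).

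Type III collagen, a homotrimer of Col3a1 that shares fibrils with type I in the distensible vessel wall, was the abundant chain nearest the threshold. Col3a1 had 849, 1021, 1014, 1048 and 1142 CPM in WWv libraries 1 to 5, against 1593, 738, 1522, 2038 and 2659 CPM in WT libraries 1 to 5. WT 2 was the lowest library of all, and the other 4 WT libraries lay above every WWv library. The log2 fold change was -0.75 ± 0.26 (adjusted p = 0.0519), short of the threshold with all libraries. Without WT 2 it was -0.94 ± 0.15 (adjusted p = 0.000635), in a fit whose choice of libraries favours larger differences.

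Type V chains, which start fibrils and set their width, did not pass the test. Col5a1 had 2931, 3056, 3255, 2827 and 3082 CPM in WWv libraries 1 to 5, against 3008, 1931, 2831, 2925 and 3271 CPM in WT libraries 1 to 5. Col5a2 had 3025, 4244, 4443, 4094 and 4433 CPM in WWv libraries 1 to 5, against 3929, 2725, 3901, 3932 and 4843 CPM in WT libraries 1 to 5. In both chains WT 2 was the lowest library, and in Col5a2 WWv 1 stood below the other WWv libraries. Their 95% intervals were -0.15 to 0.38 for Col5a1 and -0.26 to 0.39 for Col5a2 on the log2 scale, and that of the low-level Col5a3 was -1.06 to 0.10.

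Col11a1, a fibril-starting chain best known from cartilage that also joins type V molecules, had 90.04, 132, 133, 115 and 154 CPM in WWv libraries 1 to 5, against 214, 105, 209.8, 259 and 254 CPM in WT libraries 1 to 5. WT 2 lay within the WWv range and the other WT libraries above all WWv libraries. The log2 fold change was -0.74 ± 0.22 (adjusted p = 0.0298), and 8 of the 10 fits without 1 library lost the call, all but those without WT 2 or WWv 5. The log2 ratio of Col11a1 to Col5a1 per exon kilobase was -5.21 ± 0.25 in WWv and -4.38 ± 0.26 in WT, and the groups did not overlap.

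Col24a1 had the second largest fall after Col6a6. It encodes a fibrillar chain known from developing bone and cornea of the mouse, and it lies on chromosome 3 (145292472 to 145552011, plus strand). It had 3.51, 1.86, 1.95, 1.46 and 3.65 CPM in WWv libraries 1 to 5, against 11.01, 4.09, 10.6, 11.9 and 12.1 CPM in WT libraries 1 to 5. Every WWv library was below every WT library, with WT 2 far under the other WT values. The fitted level was 3.99-fold lower in WWv, a log2 fold change of -1.996 ± 0.33 (adjusted p = 0.00223), and it was -2.19 without WT 2. The related Col27a1 did not pass the test (-0.59, interval -1.24 to 0.06).

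The other fibrillar chains, Col2a1 of cartilage and Col11a2, did not pass either, with intervals of -1.06 to 0.58 and -0.99 to 0.05. Col2a1 varied widely inside each group, over 72.9 to 264 CPM in WWv and 99.3 to 355 CPM in WT. Without WT 2, 7 of the 11 fibrillar chains were called lower in WWv, beside 3620 of all 15423 genes tested in that fit. Those added were Col1a2 (-0.32), Col3a1, Col5a3 (-0.64), Col11a2 (-0.62) and Col27a1 (-0.78).

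The fibrillar group is set apart by its coding sequence, which the choice of members did not use. In the longest principal coding transcript, the longest unbroken run of Gly-X-Y codon triplets was 337 to 344 in chains of types I, II, III, V and XI. It was 216 in Col24a1 and 217 in Col27a1. Type IV chains had runs of 39 to 66, Col6a1 and Col6a2 had 87 each, Col6a3 had 45 and Col6a6 had 42.

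**Figure D3:**
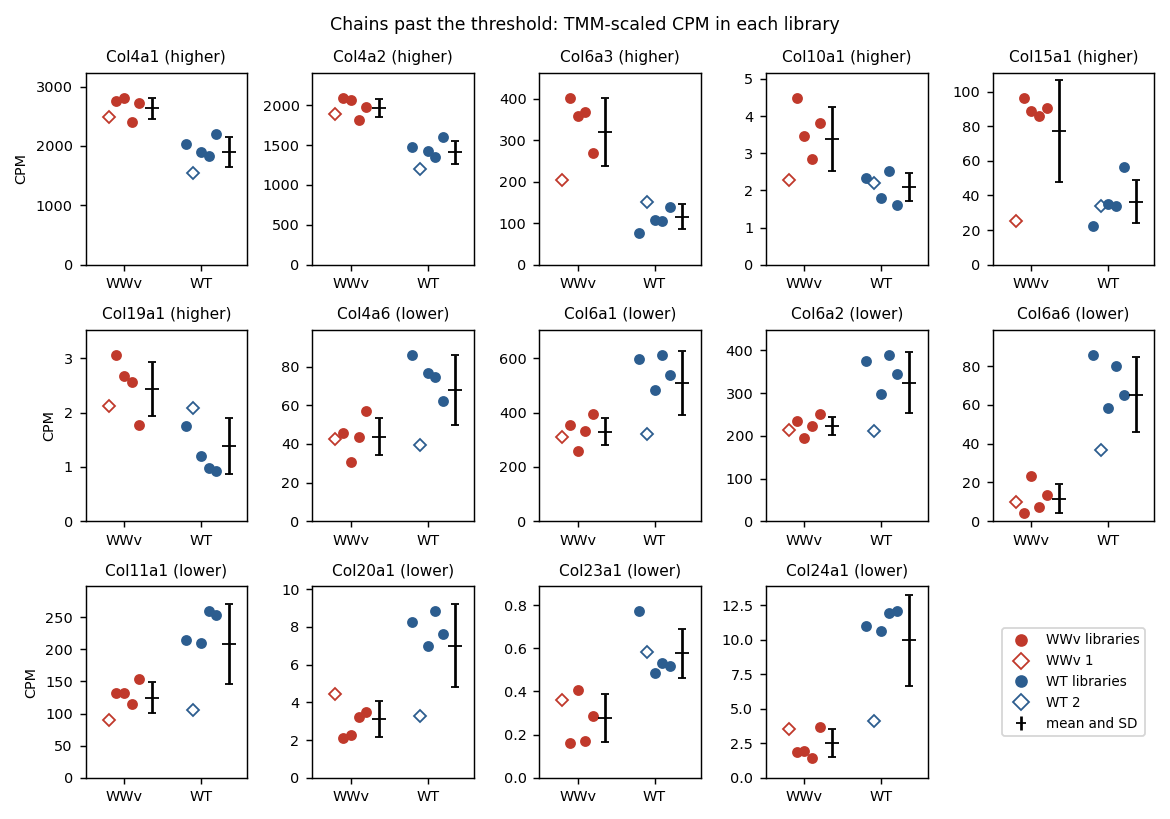
TMM-scaled CPM in each library for the 14 chains past the threshold, WWv left of WT in each panel, with the mean and SD (n = 5) beside the points; open diamonds mark WWv 1 and WT 2. WT 2 lies within the WWv range in Col4a6, Col6a1, Col6a2, Col11a1, Col15a1, Col19a1 and Col20a1. WWv 1 lies within the WT range in Col4a6, Col6a2, Col10a1, Col15a1 and Col20a1.

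Of the 9 FACIT chains, 6 were tested, 1 was higher and 1 was lower in WWv. Col12a1, a large FACIT that binds the surface of type I fibrils, had 1486, 2223, 2341, 1941 and 2374 CPM in WWv libraries 1 to 5, against 1297, 795, 1390.1, 1609.9 and 1835 CPM in WT libraries 1 to 5. WWv 1 lay within the WT range, and the other WWv libraries lay above every WT library. Its fitted log2 difference was 0.58 ± 0.20 (adjusted p = 0.0532), and leaving out WT 2, WT 5 or WWv 1 brought it past the threshold. Col14a1, the other main fibril-surface FACIT, spanned 143 to 540.1 CPM in WWv and 118 to 577 CPM in WT, with an interval of -1.12 to 0.64.

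Col20a1, a FACIT first described in chicken, had 4.43, 2.09, 2.28, 3.21 and 3.49 CPM in WWv libraries 1 to 5, against 8.26, 3.25, 6.98, 8.83 and 7.64 CPM in WT libraries 1 to 5. WT 2 was within the WWv range and the other WT libraries were above it. It changed by a log2 fold change of -1.17 ± 0.28 (adjusted p = 0.0108), and no fit without 1 library lost the call. Col19a1, a FACIT found in basement membrane zones, had 2.11, 3.06, 2.67, 2.56 and 1.77 CPM in WWv libraries 1 to 5, against 1.75, 2.09, 1.21, 0.971 and 0.916 CPM in WT libraries 1 to 5. The groups overlapped through WWv 5 and WT 2, the highest WT library here. Its log2 fold change was 0.81 ± 0.25 (adjusted p = 0.0332), and 6 of the 10 fits without 1 library lost the call. Col16a1 (-0.14, interval -0.34 to 0.05) and Col9a3 of cartilage (-0.45, interval -0.88 to -0.02) did not pass. Without WT 2 both were called lower in WWv, Col16a1 at -0.20 (adjusted p = 0.0471) and Col9a3 at -0.53 (adjusted p = 0.0407). The FACIT chains then had 2 called higher and 4 lower, counting Col9a2, which passed the low-count filter by its WT libraries alone. In that fit 3507 of all 15423 tested genes were called higher and 3620 lower. Of the Col9a3 exon bases 6.07% also belong to Tcfl5 on the opposite strand.

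The multiplexins, collagens that carry glycosaminoglycans in basement membrane zones, comprise Col15a1 and Col18a1. Col15a1 had 24.99, 96.2, 88.6, 85.7 and 90.5 CPM in WWv libraries 1 to 5, against 22.2, 34.0, 35.2, 33.7 and 56.6 CPM in WT libraries 1 to 5. WWv 1 was near the lowest WT library, while the other 4 WWv libraries lay above every WT library. Its log2 fold change came to 1.09 ± 0.34 (adjusted p = 0.0339). Without WWv 1 it was 1.31, and 7 of the 10 fits without 1 library lost the call, all but those without WWv 1, WT 2 or WT 5. Col18a1, the source of endostatin, did not pass the test (-0.40, interval -0.99 to 0.18), and WWv 1 was its lowest library too.

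Among the 4 membrane-spanning chains, Col23a1 was called lower and Col17a1 of hemidesmosomes was not (-0.43, interval -0.99 to 0.13). Col23a1 had 0.360, 0.162, 0.409, 0.172 and 0.286 CPM in WWv libraries 1 to 5, against 0.772, 0.582, 0.487, 0.533 and 0.517 CPM in WT libraries 1 to 5. The groups did not overlap, but the chain had only 7 to 37 counts per library. Its log2 fold change was -1.05 ± 0.27 (adjusted p = 0.0166). Col7a1, the anchoring fibril chain of skin, stood at 15.5 ± 2.502 CPM in WWv and 14.2 ± 2.32 CPM in WT (SD), with an interval of -0.16 to 0.42. Col28a1, known from peripheral nerve, ranged over 33.2 to 116 CPM in WWv and 17.3 to 274 CPM in WT, the lowest value being WT 2. It did not pass with all libraries (-1.18 ± 0.57, adjusted p = 0.145) and was lower without WT 2 (-1.47, adjusted p = 0.00606).

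The other 8 chains fell under the low-count filter and were not tested, each with few counts in every library. The highest count in any library was 70 for Col9a2, 35 for Col6a5, 27 for Col6a4, 12 for Col22a1, 6 for Col25a1, 3 for Col9a1, 2 for Col13a1 and 1 for Col26a1. Col9a2, of the cartilage type IX, summed to 17 counts in WWv and 119 in WT. Without WT 2 it passed the filter by its WT libraries alone, its highest WWv value being 0.115 CPM. It was then called lower in WWv, a direction set by the filter, so no conclusion is drawn from that call.

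Levels of different chains were compared per exon kilobase, the CPM divided by the length of all annotated exons. Col1a1 led in both groups, with a mean of 1282 CPM per exon kilobase in WWv and 1356 in WT. Col5a2 followed at 422 in WWv and 403 in WT, Col1a2 at 342 in WWv and 393 in WT, and Col5a1 at 357 in WWv and 329 in WT. These neighbours overlapped between libraries, and by transcript length Col1a2 rather than Col5a2 took the next place after Col1a1. Col4a1 stood at 353 CPM per exon kilobase in WWv and 254 in WT, and Col4a2 at 297 in WWv and 213 in WT. Col12a1 ranked 7 in WWv and 9 in WT, while Col3a1 ranked 8 in WWv and 7 in WT. Col6a3 ranked 15 in WWv, next below Col6a2 at 14, and 18 in WT, where Col6a2 ranked 12.

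**Figure D4:**
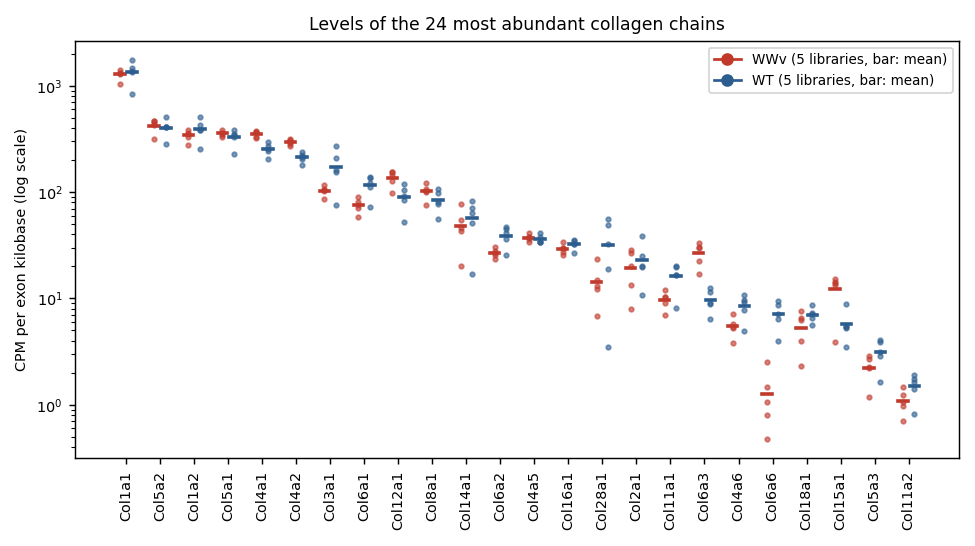
CPM per exon kilobase (log axis) for the 24 chains with the highest WT mean, in order of that mean; points are the 5 WWv libraries (red, left) and the 5 WT libraries (blue, right), bars are group means. Col1a1 leads in both groups, at 1282 in WWv and 1356 in WT, and Col6a3 and Col6a6 show the widest gaps between the groups, in opposite directions.

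Collagen transcripts together held 2.96 ± 0.273% of all counts in WWv and 3.10 ± 0.644% in WT (SD, n = 5 each), and the groups overlapped. WT 2 had the lowest share, 2.09%, and WWv 1 the lowest of the WWv libraries, 2.48%. Fibrillar chains held 2.05 ± 0.195% in WWv and 2.32 ± 0.520% in WT. Network-forming chains held 0.554 ± 0.0309% in WWv, with libraries at 0.519 to 0.581%, and 0.441 ± 0.0457% in WT, with libraries at 0.368 to 0.493%. They were the abundant class in which every WWv library lay above every WT library. Type VI chains held 0.0859 ± 0.00946% in WWv and 0.104 ± 0.0178% in WT, and FACIT chains 0.254 ± 0.0467% in WWv and 0.206 ± 0.0562% in WT. The log2 ratio of Col1a1 to Col1a2 was 1.91 ± 0.06 in WWv and 1.78 ± 0.06 in WT, with 1 WT library inside the WWv range, and that of Col5a1 to Col5a2 was -0.23 ± 0.20 in WWv and -0.29 ± 0.07 in WT. These shares and ratios are sums and quotients over the chains and were not tested.

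The genes that make, trim, bind and degrade collagen were followed in 6 lists chosen by role. Enzymes that hydroxylate and glycosylate the chains had 1 of 15 tested members higher and 2 lower in WWv. The higher one was Plod3, a lysyl hydroxylase that also adds sugars, with 336 ± 16.2 CPM in WWv and 297 ± 19.5 CPM in WT (SD, log2 fold change 0.18 ± 0.06, adjusted p = 0.0393); 11.7% of its exon bases also belong to Znhit1 on the opposite strand. The lower ones were P4ha2, a catalytic subunit of prolyl 4-hydroxylase (-0.62, adjusted p = 0.0234), and Pgghg, which removes glucose from glycosylated hydroxylysine (-0.31, adjusted p = 0.0168). WT 2 lay within the WWv range for P4ha2, at 79.2 CPM, beside 76.8 to 93.8 CPM in WWv and 126 to 185 CPM in the other WT libraries.

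Folding and export genes had 1 of 21 tested members higher and 5 lower. Larp6, which binds type I collagen transcripts, was lower at -0.63 ± 0.18 (adjusted p = 0.025). Tango2, named from a secretion screen in Drosophila cells, was at -0.39, and Vps33b, needed to deliver a lysyl hydroxylase to its vesicles, at -0.23. Klhl12, a ubiquitin ligase adaptor for large transport vesicles, was at -0.20 (adjusted p for these 3 genes 0.0176, 0.0143 and 0.033). The remaining calls, named after their values were seen, were Vipas39 (-0.19), the partner of Vps33b, and the higher Fkbp10 (0.20), a procollagen chaperone with 6.58% of its exon bases shared with Nt5c3b on the opposite strand.

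Propeptide processing and cross-linking genes had 3 of 14 tested members higher and 1 lower. Loxl2, a lysyl oxidase that cross-links type IV collagen, had 203, 309.6, 372, 315 and 252 CPM in WWv libraries 1 to 5, against 86.1, 83.8, 132, 151 and 262 CPM in WT libraries 1 to 5. WT 5 lay within the WWv range and the other WT libraries below it. The fitted log2 difference was 1.02 ± 0.30 (adjusted p = 0.0268), and 5.57% of the exon bases also belong to an antisense gene. Pxdn, the peroxidase that forms sulfilimine bonds between type IV molecules, had 211, 254, 262, 236 and 248 CPM in WWv libraries 1 to 5, against 167, 188, 177, 182 and 184 CPM in WT libraries 1 to 5. Its groups did not overlap, and its log2 fold change was 0.43 ± 0.06 (adjusted p = 0.00114). Of the procollagen N-proteinases, Adamts14 was higher (0.88, adjusted p = 0.0461) and Adamts3 lower (-0.89, adjusted p = 0.038). Both overlapped between the groups.

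Proteins that bind collagen fibrils had none of 15 tested members higher and 6 lower in WWv, with a median log2 fold change of -0.55. Lum, a small leucine-rich proteoglycan that spaces fibrils, had 1.10, 1.18, 2.07, 1.44 and 3.23 CPM in WWv libraries 1 to 5, against 23.2, 2.63, 24.8, 48.0 and 49.6 CPM in WT libraries 1 to 5. WT 2 was the lowest WT library and lay within the WWv range. On the log2 scale the change was -4.02 ± 0.66 (adjusted p = 0.00209). Dcn, the related decorin, had 22.7, 25.8, 32.8, 31.5 and 59.5 CPM in WWv libraries 1 to 5, against 105, 21.2, 93.0, 179 and 184 CPM in WT libraries 1 to 5. WT 2 was below every WWv library. Its change was -1.76 ± 0.48 (adjusted p = 0.0206). Dpt, which speeds fibril formation, was lower at -2.005 ± 0.27, and Fbln1, a fibulin of the fibril and elastic fibre surface, at -1.35 ± 0.07 (adjusted p = 0.000858 and 1.06e-05). Neither Dpt nor Fbln1 overlapped between the groups, WT 2 included. The other calls, Emilin1 (-0.55) and Matn2 (-0.35), are named after their values were seen.

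Collagen receptors had 2 of 14 tested members higher and none lower. Itgb1, the beta chain shared by the collagen-binding integrins, had 3198, 3422, 3587, 3303 and 3231 CPM in WWv libraries 1 to 5, against 2144, 2391, 2241, 2039 and 2292 CPM in WT libraries 1 to 5 (log2 fold change 0.59 ± 0.06, adjusted p = 0.000351). Cspg4, the NG2 proteoglycan of mural cells that binds type VI collagen, had 249.8, 258, 235, 217 and 208 CPM in WWv libraries 1 to 5, against 56.3, 154, 65.0, 44.97 and 38.7 CPM in WT libraries 1 to 5. Neither gene overlapped between the groups, and WT 2 was the highest WT library in both. Cspg4 had a log2 fold change of 1.70 ± 0.33 (adjusted p = 0.00448).

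Proteases and inhibitors of collagen breakdown had 4 of 15 tested members higher and 1 lower. Those higher were the inhibitors Timp1 (0.40 ± 0.07, adjusted p = 0.00298) and Timp2 (0.26 ± 0.07, adjusted p = 0.0186), the membrane collagenase Mmp14 (0.30 ± 0.09, adjusted p = 0.0315) and, named after its values were seen, the cathepsin Ctsk (0.25). Ctsb, a lysosomal cathepsin, was lower at -0.28 ± 0.05 (adjusted p = 0.00201), and 12.8% of its exon bases also belong to Fdft1 on the opposite strand. Set against 28.2% of all genes called, the 6 lists ran from 2 of 14 to 6 of 15 members. Without WT 2, when 46.2% of all genes were called, there were 1 higher and 5 lower in the hydroxylation list, 3 higher and 6 lower in folding and export, and 5 higher and 4 lower in processing. In that fit the fibril partners had 0 higher and 9 lower, the receptors 4 higher and 2 lower, and the proteases 7 higher and 2 lower.

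**Figure D5:**
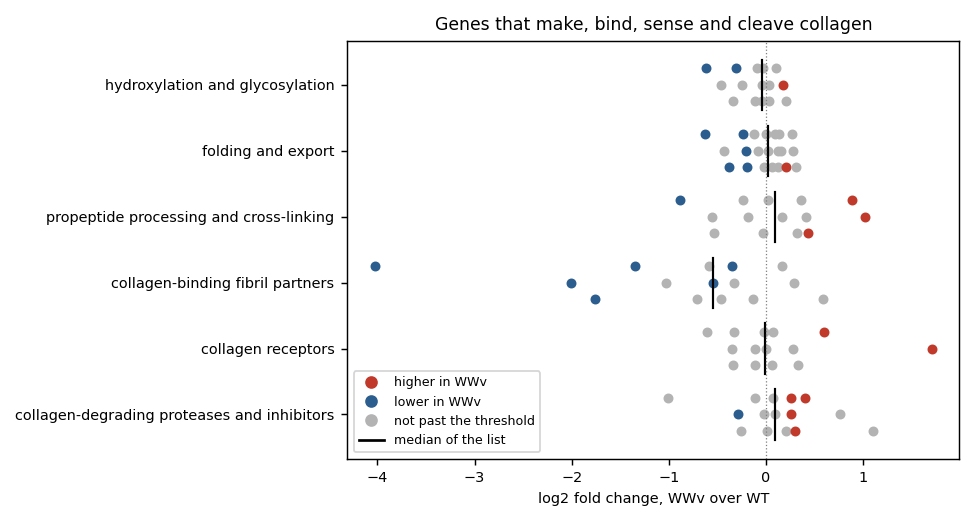
Log2 fold change of WWv over WT for the tested members of 6 lists of genes that act on collagen (points; n = 5 libraries per group), with the median of each list as a vertical line; points of a list are spread vertically only for legibility. The fibril partners lie furthest left, with Lum at -4.02, and Cspg4 furthest right at 1.70.

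Markers of other cells in an aortic culture were read beside 12.8% of all tested genes called higher and 15.4% called lower. Of 9 adventitial fibroblast markers none was higher and 4 were lower in WWv. Their summed CPM was 975.5 to 1148 in WWv and 1092 to 1434 in WT, the lowest WT value being WT 2. Most of that sum was Serpinf1, with means of 746 CPM in WWv and 689 CPM in WT, which was not called. Lum, Dcn and Dpt are calls in that list as well as among the fibril partners, so these are the same values given again. The remaining call was Pdgfra, with means of 182 CPM in WWv and 283 CPM in WT (log2 fold change -0.64, adjusted p = 0.00631). Its groups overlapped through WWv 1 at 259 CPM and WT 5 at 250 CPM, and WT 2 was at 284 CPM. Comp is in both the cartilage and the fibril partner lists. Of 7 endothelial markers, 6 were tested and none was called, with sums of 85.3 to 196 CPM in WWv and 52.7 to 308 CPM in WT, WT 2 being the highest. Pecam1 had 90.6 CPM in WT 2, beside 14.8 to 23.3 CPM in the other WT libraries and 23.4 to 57.6 CPM in WWv. Cdh5 had 107 CPM in WT 2, beside 19.7 to 30.8 CPM and 29.9 to 76.3 CPM. Emcn had 96.1 CPM in WT 2, beside 12.2 to 27.5 CPM and 25.4 to 60.1 CPM. The low-level Tek, Kdr and Vwf had lower means in WWv than in WT. Macrophage and leukocyte markers summed to 20.7 to 25.7 CPM in WWv and 20.5 to 40.9 CPM in WT, with none of 5 tested called. Cartilage markers summed to 71.0 to 137 CPM in WWv and 97.2 to 253 CPM in WT, and Matn1, a defining one, was at 0 in all libraries. Of 6 adipocyte markers 3 were tested and all 3 were called: Fabp4 (-1.13) and Lipe (-0.70) were lower in WWv with no overlap between the groups, and Pparg (0.75) was higher. Their sum was 17.5 to 23.7 CPM in WWv and 26.6 to 37.6 CPM in WT, and Adipoq, Plin1 and Cidec were at or near 0. Of the Lipe exon bases 15.6% also belong to an antisense gene. Schwann cell markers (6 tested) and epithelial or mesothelial markers (5 tested) had none called. Schwann cell sums were 6.61 to 13.996 CPM in WWv and 7.48 to 11.5 CPM in WT. Epithelial or mesothelial sums were 15.2 to 31.7 CPM in WWv and 10.5 to 41.7 CPM in WT, WT 2 again being the highest. The part of these cell types in the collagen results was not tested.

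Over the 35 chains with a RefSeq promoter window, both strands searched, a GC box was found in 22 (62.9%), beside 35.6% of all windows. A CCAAT box was found in 13 (37.1%, all windows 37.4%), a TATA box (TATAAA) in 5 (14.3%, all windows 13.6%) and an AP-1 motif in 1 (2.86%, all windows 7.81%). The windows of Col4a1 and Col4a2 held a CCAAT box each, with 1 and 3 GC boxes, beside the shared CG-rich bases shown with them. A match of letters describes a window and is not evidence of binding.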

How the data were processed

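Messenger RNA libraries of primary aortic smooth muscle cells were compared, 5 WWv and 5 WT. The authors deposited a table of raw, whole-number read counts covering 54446 Ensembl mouse genes. The submitters' processing notes name bcl2fastq 2.17, Trim Galore 0.4.3, the aligner STAR 2.5.2a and the build mm10. The counting tool, its strand setting and its annotation release are not given in the sources used here, so reads in overlapping exons are uncertain. Of the collagen exons, 0.174 to 6.07% also belong to another gene where there is any overlap.

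Symbols and exon lengths came from GENCODE M21, built on GRCm38, which is the assembly of mm10 (54409 IDs matched without the version, and the 37 others held 0.0026% of counts). Promoter sequences are those of RefSeq on GRCm38.p6, present for 35 of the 44 chains. WWv was tested against WT by edgeR's quasi-likelihood test (edgeR 4.0.16 in R 4.3.3), with no covariate, TMM scaling and filterByExpr at a minimum count of 10. Every adjusted p is the two-sided Benjamini-Hochberg value of this test over 15181 genes unless another fit is named, with a threshold of 0.05. The SE of a log2 fold change is its absolute value over the square root of F. Intervals are at 95%. CPM are TMM-scaled over the full library. The common biological coefficient of variation was 0.161. No 2 libraries were identical or alike within sampling noise.

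Chains past the threshold, the 8 of highest level per exon kilobase and partners in a chain ratio are given in every library. Each list of genes that act on collagen is represented by up to 4 called members of largest absolute change. The members, lists and rules were chosen with earlier results of these data known. Alternatives, limma 3.58.1 and DESeq2 1.42.0 among them, changed 1 choice at a time, except a fit that left out WT 2 and WWv 1 together. The transcript length used beside the exon length was chosen after seeing the data.

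On simulated data for WWv against WT over 15511 genes, 61.2% of 1.5-fold, 94% of 2-fold and 100% of 4-fold changes were recovered, and 9 of 179 calls were false. The changes were set in 67, 67 and 66 genes, all above 1 CPM in WT, and no library was made to stand apart. In the data 4274 genes were called and WT 2 stood apart, so these rates need not hold there. Depth was 42040255 to 53863661 counts per library. That each library is from a different mouse is read from the labels' number of mice, since the titles give only numbers, so p-values measure the spread between these libraries.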

Additional observations from a re-analysis of the deposited data

Results flagged for a closer look

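In 8 of 104 groups of 5 libraries 1 library stood apart from the other 4 by Dixon's ratio (critical value 0.71). Chance flags about 1 in 20 such groups, and the values here are not independent of each other. In 6 of the 8 the library was WWv 1.

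Col15a1 had 24.99 CPM in WWv 1, beside 85.7 to 96.2 CPM in the other WWv libraries, and Col5a2 had 3025 CPM there, beside 4094 to 4443 CPM. The share of counts in all collagen chains was 2.48% in WWv 1 and 2.99 to 3.15% in the other WWv libraries. Fibrillar chains held 1.70% of its counts, beside 2.10 to 2.19%, and multiplexin chains 0.00404%, beside 0.0119 to 0.0136%. The log2 ratio of Col5a1 to Col5a2 was 0.13 in WWv 1 and -0.36 to -0.27 in the others.

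The log2 ratio of Col8a1 to Col8a2 was 7.60 in WWv 3 and 8.21 to 8.44 in the other WWv libraries. Col24a1 had 4.09 CPM in WT 2, beside 10.6 to 12.1 CPM in the other WT libraries.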

How the results depend on the processing

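No called chain reversed under any of the 24 alternative settings fitted for the chains (335 values, 59 short of the threshold). Of 861 chain values 5 reversed, all of chains that were not called: with library size only the log2 fold change of Col4a5 was -0.042 and the log2 fold change of Col5a2 was -0.016. Without 1 library Col1a1 ran from -0.21 to 0.030 (without WT 5), Col2a1 from -0.43 to 0.029 (without WT 4) and Col5a2 from -0.034 (without WT 2) to 0.16. Library size only also moved the median of all genes to -0.09 and the higher share of all calls to 21.5% (45.4% with TMM), and that of collagen calls to 35.7% (42.9% with TMM). Collagen calls were 3 higher and 2 lower at an adjusted p under 0.01 and 2 higher and 3 lower at a minimum fold of 1.2. Limma-voom with quality weights gave 15 lower and the fit without WT 2 and WWv 1 together 18 lower. DESeq2 added Col3a1 (adjusted p = 0.0126) and Col12a1 (0.0148). Leaving out 1 library gave 3 to 7 higher and 5 to 19 lower chains, the 19 being without WT 2, and 8 of the 14 calls held in every such fit.

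All genes numbered 983 higher and 3599 lower with library size only, 3595 and 3806 with quality weights, 3361 and 3750 without both libraries, 839 and 988 at 0.01, and 334 and 767 at a fold of 1.2, with 1286 to 3507 higher and 1721 to 3620 lower without 1 library. The same numbers do not pair libraries: same-numbered deviations correlated at -0.092, -0.0129, 0.0368, -0.0712 and 0.308, and no library correlated best with its own number. With the replicate block 5 chains were higher and 7 lower (Col4a6 -0.61, Col10a1 0.67 and Col11a1 -0.70 not called, Col11a2 -0.46 called).

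In the lists, hydroxylation had 0 higher with upper quartile, library size only, no filter, the 1 CPM filter, the block, 0.01 and the minimum fold, 2 with quality weights, DESeq2 and 0.1 and 3 without both libraries, and 5 lower with quality weights and without both and 0 at 0.01 and the fold. Folding had 3 higher with RLE, 0 with library size only, 0.01 and the fold, 7 with quality weights, 5 with DESeq2, 6 without both and 4 at 0.1, and 3 lower with no filter and 0 at 0.01 and the fold. Processing had 5 higher with quality weights and without both and 1 at 0.01 and the fold, and 4 lower with library size only, quality weights and without both, 2 with DESeq2, 3 at 0.1 and 0 with no filter, 1 CPM, voom, the block, 0.01 and the fold. Fibril partners had 10 lower with quality weights and without both and 3 at 0.01 and the fold. Receptors had 4 higher with quality weights and without both, and 1 lower with library size only, DESeq2 and 0.1, 2 with quality weights and 3 without both. Proteases had 7 higher with quality weights, 2 with the block, 1 with library size only and 0.01 and 0 at the fold, and 2 lower with upper quartile, library size only, no filter, quality weights, DESeq2, 0.1 and without both and 0 at the fold. Without 1 library the ranges were 0 to 3 higher and 1 to 5 lower for hydroxylation, 1 to 4 higher and 2 to 6 lower for folding, 1 to 5 higher and 0 to 4 lower for processing, 4 to 9 lower for fibril partners, 2 to 4 higher and 0 to 2 lower for receptors, and 1 to 7 higher and 1 to 2 lower for proteases. The network-forming share difference was 0.0618 percentage points per exon kilobase over all genes, where it was 0.113 as a share of counts. The cause of these moves was not tested.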
